A study of Homo sapiens with 21 samples.

Results

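The genes described here are 50 human genes of the unfolded protein response and the amino acid stress response, followed over time in HEY cells, an ovarian cancer line, that had received mir-429 or a control miRNA. They were chosen by name: each symbol was looked up in the annotation of the Affymetrix HG-U133 Plus 2.0 array, probe sets assigned to exactly 1 symbol were kept, and the probe set with the highest mean level stood for the gene. All 50 had such a probe set, out of 19775 genes on the array, and all 50 were among the 12879 genes tested. No measured value entered the choice of the genes, although results of these data were known when the list was drawn up. The list was divided by role into an endoplasmic reticulum (ER) chaperone branch of 16 genes and an ATF4 branch of 30 genes. The ER chaperone branch holds 13 chaperones and folding enzymes and 3 genes of ER-associated degradation. The other 4 genes, 3 stress sensors and XBP1, were placed in neither branch.

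HEY is an established line of human ovarian cancer cells with a mesenchymal appearance, and every sample came from this 1 line. The 7 groups were untransfected cells taken before transfection (0 h), cells transfected with a negative control miRNA and taken at 24 h, 48 h or 144 h, and cells transfected with mir-429 and taken at the same times. Each group held 3 arrays, 21 in all, which the labels call biological replicates, and cells of all transfected groups had received the same lipid reagent. The labels give no untransfected cells later than 0 h, so in the comparison of control with untransfected cells the transfection, the control miRNA and the time in culture cannot be told apart. Levels are log2 intensities, so a difference of 1 is a doubling. In RNA from a whole culture, a change in the share of cells that express a gene and a change in RNA per cell cannot be told apart.

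When proteins misfold in the ER, sensors in its membrane switch on a set of genes that fold, export and destroy such proteins. IRE1 (gene ERN1) splices the messenger of the transcription factor XBP1, ATF6 is cut to release a transcription factor, and PERK (gene EIF2AK3) phosphorylates the initiation factor eIF2 alpha, which slows most translation. Translation of the transcription factor ATF4 rises under that condition, and ATF4 then induces genes for amino acid synthesis, amino acid import and the charging of transfer RNAs. Other kinases, which sense amino acid lack, double-stranded RNA or heme lack, phosphorylate the same factor, so the ATF4 branch can be switched on without stress in the ER. The arrays read messenger levels alone. Splicing of XBP1, cleavage of ATF6 and the amount of ATF4 protein were not measured.

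The transfected miRNA is printed because the comparisons turn on it, with its seed (bases 2 to 8, the part that pairs with most targets) in capitals. It belongs to the miR-200 family, known for repressing the transcription factors that maintain a mesenchymal state, and in RefSeq (GRCh38.p14) its mature form lies at chr1:1169055-1169076 on the plus strand.
hsa-miR-429: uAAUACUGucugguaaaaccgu

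Promoters of members carry the letters that the transcription factors of each branch are known to bind, and a few are printed to show the branches. RefSeq promoters of 300 bases (250 before to 50 after the annotated start, GRCh38.p14) were found for 44 of the 50 members and searched on both strands. The C/EBP-ATF response element, the site of ATF4 with its C/EBP partners, was searched as TGATGNAA. It was found in 10 of the 44 members (HERPUD1, ATF3, CEBPG, CHAC1, ASNS, SLC3A2, SLC7A1, GARS1, AARS1 and CARS1) and in 4.46% of all 27305 genes with a promoter searched. The ER stress response element, the site of ATF6 and XBP1, was searched as CCAAT and CCACG with any 9 bases between them and found in 7 members (XBP1, HSPA5, HSP90B1, PDIA6, CALR, CANX and CRELD2) and in 0.0916% of all genes. Its second form, ATTGG and CCACG with any 1 base between them, was found in 3 members (SDF2L1, HYOU1 and HERPUD1) and in 0.0696% of all genes. The unfolded protein response element, TGACGTGG, was found in HYOU1, ALDH18A1 and CARS1 and in 0.927% of all genes, and in HYOU1 it overlapped the second form of the ER element. A match of letters is a description and not a sign of binding. The windows below run 5′ to 3′ along the gene, with the matched letters in capitals. The C/EBP-ATF match of ASNS began 68 bases before the start (chr7:97872454-97872491, minus strand), that of CHAC1 209 bases before it (chr15:40953247-40953284, plus strand) and that of ATF3 191 bases before it (chr1:212565201-212565238, plus strand).
ASNS: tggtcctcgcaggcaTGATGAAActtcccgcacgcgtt
CHAC1: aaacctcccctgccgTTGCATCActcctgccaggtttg
ATF3: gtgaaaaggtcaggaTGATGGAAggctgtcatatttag

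HERPUD1 was the member with both a C/EBP-ATF match, 176 bases before its start (chr16:56931951-56931988, plus strand), and an ER element match of the second form, 117 bases before it (chr16:56932010-56932050, plus strand). HSPA5 carried the first form 66 bases before its start (chr9:125241376-125241424, minus strand) and SDF2L1 the second form 188 bases before its start (chr22:21642099-21642139, plus strand). In CHAC1, in HERPUD1 for the C/EBP-ATF element and in SDF2L1 the match lay on the opposite strand, so the capitals show its reverse complement.
HERPUD1 C/EBP-ATF element: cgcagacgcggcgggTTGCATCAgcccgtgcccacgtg
HERPUD1 ER element, second form: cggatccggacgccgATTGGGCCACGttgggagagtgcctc
HSPA5 ER element: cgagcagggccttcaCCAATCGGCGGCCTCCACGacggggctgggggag
SDF2L1 ER element, second form: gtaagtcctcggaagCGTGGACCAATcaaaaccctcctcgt

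The arrays bear on how these values are read in 3 ways. The 48 h arrays stood apart: the gap between 3′ and 5′ control probe sets of GAPDH and ACTB (3′ minus 5′), a gauge of RNA integrity and amplification on a log2 scale, was 7.83 ± 0.62 (SD, n = 3) in control cells and 8.55 ± 0.15 in mir-429 cells at 48 h. It was 3.15 ± 0.53 in untransfected cells, 4.21 ± 0.21 and 2.87 ± 0.36 in control and mir-429 cells at 24 h, and 3.9 ± 0.47 and 3.35 ± 0.13 at 144 h. The groups at 24 h therefore differed in this gauge too. Of 4 mesenchymal markers, all 4 were above the array median on every array. Of 10 epithelial ovarian markers 5 were above it on every array (PAX8, WT1, KRT7, KRT8 and KRT18), while EPCAM, CDH1 and MUC16 were above it on none, and 7 of 8 leukocyte markers were above it on none. Of 10 endothelial markers CDH5 and TIE1 were above it on every array, and of 10 fibroblast markers COL1A1 and FAP. The summed endothelial level was 49.2 to 50.2 in untransfected cells, 45.9 to 47.3 and 44.6 to 45.3 in control and mir-429 cells at 24 h, and 48.7 to 49.4 and 46.1 to 50.7 at 144 h, and its part in the results was not tested. ZEB1, a described target of the miR-200 family, fell by 1.29 at 24 h (limma, adjusted p = 6.5e-06) and by 1.72 at 48 h (adjusted p = 1.36e-07) with mir-429, and differed by -0.14 at 144 h (adjusted p = 0.655).

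Averaged over its 30 genes, the ATF4 branch was highest against untransfected cells in control cells at 24 h, by 0.37 (lowest and highest array 0.27 and 0.49), and next in mir-429 cells at 24 h, by 0.25 (0.19 and 0.30). At 144 h the control arrays lay near untransfected cells, by -0.04 (-0.09 and -0.01), and the mir-429 arrays above them, by 0.24 (0.22 and 0.26). The ER chaperone branch followed another order. It was higher in mir-429 than in control cells at 24 h, by 0.27 (0.24 and 0.32) against 0.16 (0.11 and 0.23), and at 144 h by 0.07 (0.03 and 0.10) against -0.10 (-0.12 and -0.07). At 24 h the arrays overlapped for its 13 chaperones and folding enzymes, at 0.26 (0.23 and 0.31) against 0.22 (0.20 and 0.25). Its 3 degradation genes were at 0.34 (0.29 and 0.38) against -0.12 (-0.32 and 0.15). At 144 h the 13 were at 0.04 against -0.08 and the 3 at 0.23 against -0.19. At 48 h the ATF4 branch lay below untransfected cells in both groups, at -0.22 in control and -0.13 in mir-429 cells, and the chaperone branch at 0.07 and 0.12. The mean over all genes tested lay between -0.24 and -0.12 on the control arrays and between -0.21 and -0.19 on the mir-429 arrays at 48 h, and between -0.11 and -0.03 on the mir-429 arrays at 144 h. These averages describe chosen genes and carry no test.

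**Figure D1:**
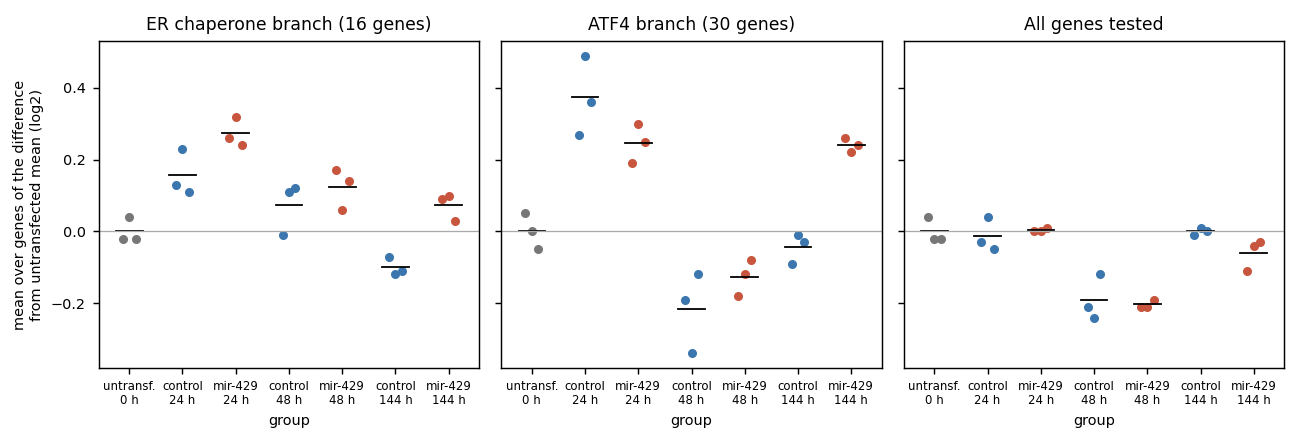
Mean log2 level of the ATF4 branch (30 genes), the ER chaperone branch (16 genes) and all genes tested, each against its mean in untransfected cells, for each of the 21 arrays in the 7 groups. Points are arrays and bars are group means; at 144 h the mir-429 arrays of the ATF4 branch lie between 0.22 and 0.26 and the control arrays between -0.09 and -0.01.

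Single members are shown as group means. HSPA5, the main ER chaperone also called BiP, was among the brighter probe sets of the list and lay between 12.46 and 13.15 in all arrays. CHAC1, a glutathione-degrading enzyme and a sensitive target of ATF4, was among the dimmer ones and lay between 3.84 and 5.81.

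**Figure D2:**
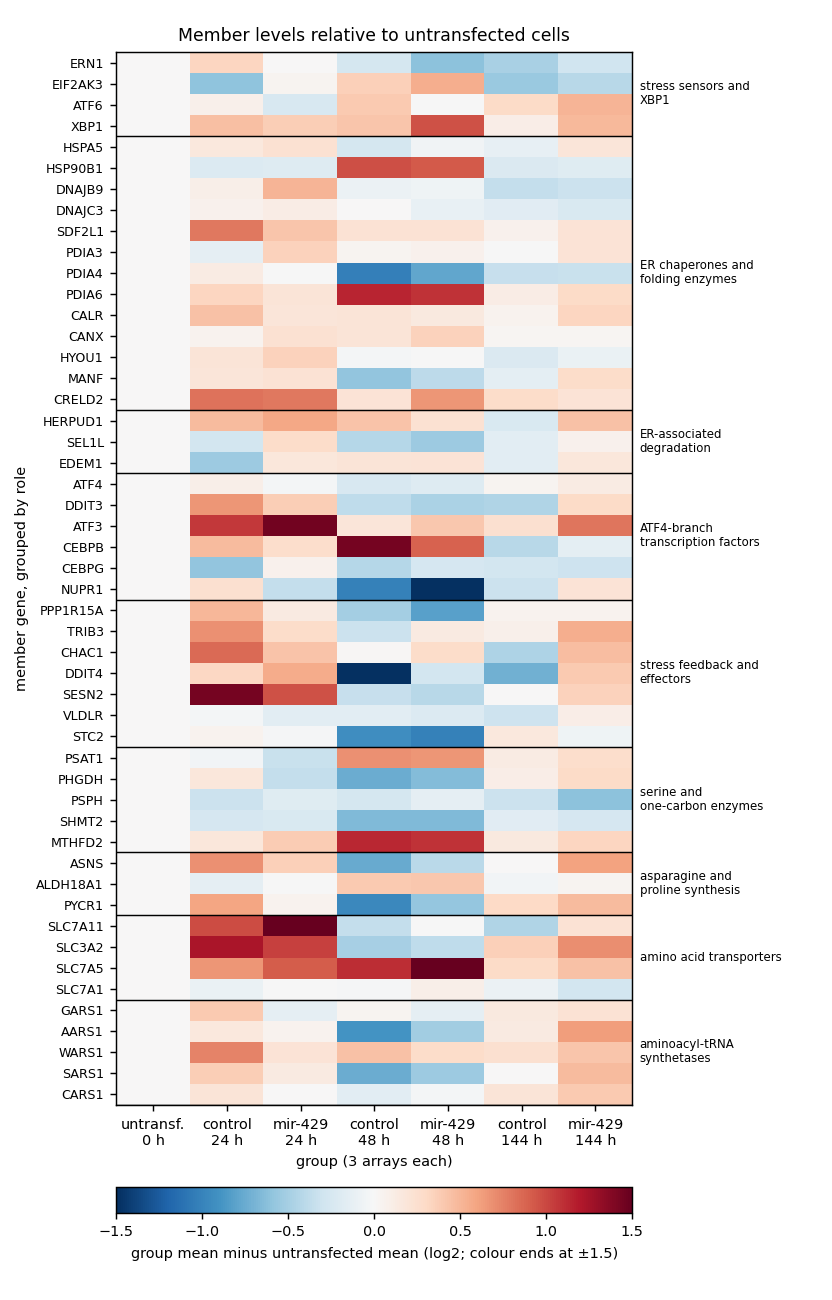
Mean log2 level of each of the 50 members (rows, ordered by role) in each of the 7 groups (columns, 3 arrays each). Values are differences from the gene's mean in untransfected cells, so the spread between arrays is not shown. The colour scale is cut at its ends, so values beyond them take the end colour. DDIT4, CHAC1 and DDIT3 are higher in the mir-429 column than in the control column at 144 h.

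Control miRNA at 24 h against untransfected cells joins the transfection, the control miRNA and the first day in culture, without mir-429. Of the 50 members, 25 changed, 20 higher and 5 lower (50%), where 38% of all genes tested changed, 18.3% higher and 19.8% lower (limma, adjusted p under 0.05). In the ATF4 branch 14 of 30 were higher and 3 lower, with a median difference of 0.34. In the ER chaperone branch 5 of 16 were higher and 1 lower, with a median of 0.14, and the difference between the branches was not tested. The median over all genes was 0.04.

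Among the ATF4-branch genes that rose in control cells at 24 h, SESN2, a leucine sensor that restrains mTORC1, went from 8.45, 8.12 and 8.09 in untransfected cells to 9.53, 9.74 and 9.69, a difference of 1.44 ± 0.19 (SE; adjusted p = 2.75e-05). SLC3A2, the heavy chain shared by several amino acid transporters, went from 6.92, 6.69 and 6.85 to 7.74, 8.39 and 7.99, a difference of 1.22 ± 0.25 (adjusted p = 0.000922). ATF3, a stress-induced transcription factor, rose by 1.06 ± 0.12 (adjusted p = 5.13e-06). For SESN2 and SLC3A2 every control array lay above every untransfected array, as for 26.8% of all genes. SLC7A11, which imports cystine as a partner of SLC3A2, rose by 0.98 (adjusted p = 4.87e-05) and CHAC1 by 0.85 (adjusted p = 0.00789). DDIT3, the transcription factor CHOP, rose by 0.66 (adjusted p = 0.00272). TRIB3, a pseudokinase that restrains ATF4, rose by 0.68 (adjusted p = 0.0196), and ASNS, asparagine synthetase, by 0.69 (adjusted p = 0.000151). With the mean of a gene's probe sets neither TRIB3 nor ASNS passed. Messenger of ATF4 itself differed by 0.09, and PSAT1, an enzyme of serine synthesis, by -0.04, neither past the threshold.

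On the ER side, control cells at 24 h had more CRELD2, a secreted folding factor, by 0.81 (adjusted p = 0.00042), and more HERPUD1, a membrane protein of ER-associated degradation, by 0.47 (adjusted p = 0.00428). XBP1 was higher by 0.45 (adjusted p = 0.036), with arrays that overlapped those of untransfected cells. HSPA5 (0.16), HSP90B1, which encodes the ER form of HSP90 (-0.21), ATF6 (0.08) and ERN1 (0.32) did not pass the threshold. The sensor EIF2AK3 fell by 0.60 (adjusted p = 0.00253), and the other members that were lower were EDEM1, CEBPG, PSPH and SHMT2. With the 3′ minus 5′ gauge in the fit, 10 members passed: all 25 kept their direction, the median size over the members was 0.32 in both fits, and the median SE went from 0.14 to 0.18.

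At 48 h, 29 of the 50 members differed between control and untransfected cells (58%), 12 higher and 17 lower, against 54.5% of all genes, 18.4% higher and 36.1% lower. This share is near the background. The members with the largest differences were DDIT4, an mTORC1 inhibitor, at -1.50 (adjusted p = 1.65e-06), CEBPB, a transcription factor that partners ATF4, at 1.44 (adjusted p = 1.64e-06), and the disulfide isomerases PDIA6 at 1.15 (adjusted p = 1.01e-07) and PDIA4 at -1.02 (adjusted p = 2.19e-05). The mitochondrial folate enzyme MTHFD2 rose by 1.13 (adjusted p = 1.03e-07) and the leucine transporter SLC7A5 by 1.12 (adjusted p = 3.83e-06). A second probe set of PDIA4 differed by 3.24 and one of PDIA6 by -0.08. With the 3′ minus 5′ gauge in the fit, the standard error of the members went from 0.14 to 0.54 at the median and 1 of the 29, SLC7A5, passed. Of the 29, 25 kept their direction in that fit, and ATF4 (0.02), CEBPG (0.67), HSPA5 (0.05) and WARS1 (-0.38) turned. After cyclic loess scaling 14 were higher and 13 lower. Among the other sensors and leading genes, HSP90B1 (0.97), PSAT1 (0.67), HERPUD1 (0.43), XBP1 (0.43), ATF6 (0.40) and EIF2AK3 (0.36) were higher past the threshold. ASNS (-0.76), DDIT3 (-0.38), SLC7A11 (-0.37), HSPA5 (-0.25) and ATF4 (-0.23) were lower past it, and ERN1 (-0.26), TRIB3 (-0.32), ATF3 (0.18) and CHAC1 (0.02) did not pass.

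By 144 h, 0 of the 50 members differed between control and untransfected cells by limma at an adjusted p under 0.05, where 0.474% of all genes did, 0.28% higher and 0.194% lower. At an unadjusted p under 0.05, 11 members differed, 2 higher and 9 lower (22%), against 14.3% of all genes. DDIT4 differed by -0.72, EIF2AK3 by -0.55, ERN1 by -0.49, DDIT3 and CHAC1 by -0.46 each, and SLC7A11 by -0.45. In a fit of the 6 arrays compared alone, 4 members were lower (CEBPB, DDIT4, EIF2AK3 and SLC7A11), and with a weight for each array 25 members differed. The estimation of those weights stopped before it converged. The shares of all genes in these fits are not given here, so neither count is read as a result about the members. Of the other leading genes, ATF6 differed by 0.30, ATF3 by 0.24, HERPUD1 by -0.23, HSP90B1 by -0.22, HSPA5 and PSAT1 by -0.12 and 0.12, XBP1 by 0.10, TRIB3 by 0.08, ATF4 by 0.05 and ASNS by 0.01.

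The comparisons of mir-429 with control miRNA at the same time ask what mir-429 adds. They use the same control arrays as the comparisons above, so differences in those arrays enter both. At 24 h, 14 of the 50 members differed (28%), 7 higher and 7 lower, against 26.6% of all genes, 15% higher and 11.6% lower. This share is near the background. By branch, 3 of 16 ER chaperone genes were higher and 0 lower, with a median of 0.06, and 3 of 30 ATF4-branch genes were higher and 6 lower, with a median of -0.18. The median over all genes was -0.02. The count was 7 without control replicate 3 at 24 h, 9 without mir-429 replicate 1, and 0 with the 3′ minus 5′ gauge in the fit, where all 14 kept their direction. In the fit with the gauge 40 of the 50 members kept their direction. The median size over the members went from 0.25 to 0.17 there, and the median SE from 0.14 to 0.20. The count was 9 with no filter on dim genes or with the mean of all probe sets, and 25 with a weight for each array.

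Among the genes that were higher with mir-429 at 24 h, EDEM1, a lectin that directs misfolded glycoproteins to degradation, was 8.86, 8.80 and 8.60 with mir-429 and 7.88, 8.50 and 7.72 in control cells, a difference of 0.72 ± 0.17 (SE; adjusted p = 0.0052). The sensor EIF2AK3 was 6.71, 6.44 and 6.45 with mir-429 and 6.11, 5.92 and 5.67 in control cells, a difference of 0.63 ± 0.14 (adjusted p = 0.00241). SLC7A11 was 10.99, 11.01 and 10.96 against 10.28, 10.58 and 10.23, a difference of 0.63 ± 0.14 (adjusted p = 0.00292). In all 3 genes the groups did not overlap, as for 20.3% of all genes in the higher direction. The mir-429 arrays of EDEM1 and EIF2AK3 lay at or a little above the untransfected levels (8.54 to 8.62 and 6.41 to 6.63), while those of SLC7A11 lay above both other groups. CEBPG, a C/EBP partner of ATF4, was higher by 0.66 (adjusted p = 0.00323), although a second probe set of it differed by -0.30. ATF3 was higher by 0.39 (adjusted p = 0.0208), with another probe set at -0.49, and the other members that were higher were DNAJB9, a co-chaperone of BiP, and PDIA3, a disulfide isomerase.

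Among the genes that were lower with mir-429 at 24 h were enzymes that make amino acids or charge transfer RNAs. WARS1, the tryptophanyl-tRNA synthetase, was 8.92, 9.11 and 9.16 with mir-429 and 9.49, 9.50 and 9.79 in control cells, a difference of -0.53 ± 0.11 (adjusted p = 0.00179). PHGDH, the first enzyme of serine synthesis, was 9.34, 9.55 and 9.63 against 9.94, 10.14 and 10.00, a difference of -0.52 ± 0.13 (adjusted p = 0.00749). PYCR1, the last enzyme of proline synthesis, was 6.03, 6.0 and 5.89 against 6.29, 6.52 and 6.73, a difference of -0.54 ± 0.18 (adjusted p = 0.0338). For each of these the mir-429 arrays lay below every control array, as for 20.2% of all genes, and those of PHGDH also below every untransfected array (9.75 to 10.08). ASNS differed by -0.33 (adjusted p = 0.0369), GARS1, the glycyl-tRNA synthetase, was lower too, and NUPR1, a stress-induced chromatin factor, differed by -0.60 (adjusted p = 0.036). ATF6 differed by -0.32 and passed (adjusted p = 0.0392), with arrays that overlapped and other probe sets at 0.19 and 0.36. With the mean of a gene's probe sets neither ASNS nor ATF6 passed.

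Several leading genes did not pass at 24 h. DDIT3 was 7.89, 8.38 and 8.46 with mir-429 and 8.32, 8.83 and 8.46 in control cells, a difference of -0.29 (adjusted p = 0.178). TRIB3 differed by -0.40 (adjusted p = 0.191), CHAC1 by -0.42 (adjusted p = 0.198), ERN1 by -0.32 (adjusted p = 0.118) and PSAT1 by -0.29 (adjusted p = 0.13). HERPUD1 differed by 0.11, ATF4 by -0.11, XBP1 by -0.08, HSPA5 by 0.07 and HSP90B1 by 0.01.

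At 48 h, 8 of the 50 members differed between mir-429 and control cells (16%), 5 higher and 3 lower, against 20.6% of all genes, 9.32% higher and 11.3% lower. DDIT4 was 9.09, 9.09 and 9.34 with mir-429 and 7.63, 8.0 and 8.21 in control cells, a difference of 1.23 ± 0.17 (SE; adjusted p = 5.87e-05). NUPR1 was 5.0, 4.02 and 4.95 against 5.69, 5.63 and 5.30, a difference of -0.88 ± 0.20 (adjusted p = 0.00464). In both genes the groups did not overlap, as for 13.5% of all genes in the higher and 15.4% in the lower direction, and both kept their call when any 1 array was left out. NUPR1 differed by -0.56 without mir-429 replicate 2 and did not pass in a fit of the 6 arrays compared alone (adjusted p = 0.109). Its level of 4.02 on that replicate lay below the array median of 4.15, and a filter on all 21 arrays left NUPR1 out. XBP1 rose by 0.53 (adjusted p = 0.0272), CRELD2 by 0.45 (adjusted p = 0.0383), SLC7A5 by 0.44 (adjusted p = 0.033) and ASNS by 0.34 (adjusted p = 0.0349). CEBPB differed by -0.55 (adjusted p = 0.0257) and ATF6 by -0.40 (adjusted p = 0.0147), with another probe set of ATF6 at 0.20. The count was 3, 5 and 4 without mir-429 replicate 1, 2 and 3, 2 in a fit of the 6 arrays alone, 5 with no filter, 4 with the 3′ minus 5′ gauge and 3 with array weights. The leading genes that did not pass were TRIB3 (0.45), SLC7A11 (0.35), ERN1 (-0.35), CHAC1 (0.25), ATF3 (0.23), HSPA5 (0.21), HERPUD1 (-0.20), EIF2AK3 (0.19), DDIT3 (-0.10), HSP90B1 (-0.06), ATF4 (0.05) and PSAT1 (-0.01).

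At 144 h, 8 of the 50 members rose with mir-429 (16%) and 0 fell, against 5.85% of all genes, 1.48% higher and 4.37% lower. Of the 8, 6 belong to the ATF4 branch (DDIT4, CHAC1, DDIT3, SLC7A11, ASNS and ATF3) and 2 to the ER chaperone branch (HERPUD1 and MANF). The median difference was 0.19 over the members, 0.20 over the ATF4 branch and 0.16 over the ER chaperone branch, beside -0.04 over all genes. The difference was above 0 for 41 of the 50 members (82%) and for 42.8% of all genes. All 3 mir-429 arrays lay above all 3 control arrays for 26 members and below them for 3, where 13% and 20.9% of all genes did so. The count was 5 without control replicate 2, and 19 with a weight for each array. With the mean of all probe sets of a gene it was also 5, and HERPUD1 (0.33), SLC7A11 (0.38), ASNS (0.18) and ATF3 (0.19) were below the threshold. After cyclic loess scaling 321 genes of the array were higher and 408 lower, in place of 191 and 563.

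The transcription factors DDIT3 and ATF3 rose with mir-429 at 144 h. DDIT3 (probe set 209383_at) was 8.24, 8.11 and 8.12 with mir-429 and 7.20, 7.45 and 7.61 in control cells, a difference of 0.74 ± 0.15 (SE) or 1.67-fold (adjusted p = 0.0076). ATF3 (202672_s_at) was 6.76, 6.57 and 6.63 against 6.24, 5.96 and 6.08, a difference of 0.56 ± 0.12 or 1.48-fold (adjusted p = 0.00879). Neither gene's groups overlapped, and ATF3 missed the threshold without control replicate 2 (adjusted p = 0.0626). ATF4 messenger was 12.98, 13.10 and 12.99 with mir-429 and 12.95, 12.97 and 12.92 in control cells (0.08, adjusted p = 0.662). CEBPB, CEBPG and NUPR1 did not pass, and NUPR1 was 6.61, 6.88 and 6.80 against 6.20, 6.20 and 6.30.

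Among the effectors, DDIT4 (202887_s_at) was 10.32, 9.45 and 9.75 with mir-429 and 8.89, 8.78 and 8.52 in control cells, a difference of 1.11 ± 0.17 or 2.16-fold (adjusted p = 0.000806). CHAC1 (219270_at) was 5.41, 4.88 and 5.36 against 3.84, 4.44 and 4.61, a difference of 0.92 ± 0.23 (adjusted p = 0.024). The control levels of CHAC1 lay near the array median, 1 of them below it, so its fold is not given, and a filter on all 21 arrays left the gene out. All mir-429 arrays of both genes lay above all control arrays, and the CHAC1 arrays spread more widely than those of DDIT3. CHAC1 missed the threshold without control replicate 1 or 2 or mir-429 replicate 1 or 3, with an adjusted p of up to 0.127. TRIB3 was 7.27, 7.22 and 7.13 against 6.67, 6.68 and 6.88 and did not pass (0.46, adjusted p = 0.25), nor did SESN2, PPP1R15A, VLDLR and STC2.

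Of the genes for amino acid supply, ASNS and SLC7A11 rose with mir-429 at 144 h. ASNS (205047_s_at) was 10.23, 10.29 and 10.02 with mir-429 and 9.59, 9.59 and 9.60 in control cells, a difference of 0.59 ± 0.11 or 1.5-fold (adjusted p = 0.00392). SLC7A11 (209921_at) was 9.74, 9.43 and 9.62 against 8.83, 9.05 and 8.93, a difference of 0.66 ± 0.14 or 1.59-fold (adjusted p = 0.00783). Both kept their call when any 1 array was left out. A dimmer probe set of SLC7A11 differed by -0.18 and another by 0.64. ASNS has 2 probe sets, and the one not used went the opposite way. With the mean of a gene's probe sets both differences were smaller, as given above, and did not pass. None of the 5 serine and one-carbon enzymes passed (PSAT1 0.14, adjusted p = 0.637), nor any of the 5 aminoacyl-tRNA synthetases, although all 5 synthetases were above 0, with SARS1 at 0.46 and AARS1 at 0.49.

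On the ER side, HERPUD1 (217168_s_at) was 10.77, 10.68 and 10.62 with mir-429 and 10.20, 9.97 and 9.88 in control cells at 144 h, a difference of 0.67 ± 0.12 or 1.59-fold (adjusted p = 0.00214). The other of its 2 probe sets hardly differed, and with the mean of both HERPUD1 did not pass. MANF (202655_at), an ER-resident folding factor that can be secreted, was 11.58, 11.60 and 11.47 against 11.23, 11.03 and 11.13, a difference of 0.42 ± 0.12 or 1.34-fold (adjusted p = 0.0419). HSPA5 was 13.14, 13.11 and 13.00 against 12.83, 12.71 and 12.80, a difference of 0.31 that did not pass (adjusted p = 0.0681), and a second probe set of it differed by 0.68. For all 3 genes the groups did not overlap. MANF missed the threshold in 12 of the 21 fits that left out 1 array, with an adjusted p of up to 0.183. None of the sensors passed, with EIF2AK3 at 0.13, ERN1 at 0.19, ATF6 at 0.22 and XBP1 at 0.39 (adjusted p = 0.186), and HSP90B1 differed by 0.04.

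Set against untransfected cells, with no test, all 3 mir-429 arrays at 144 h lay above all untransfected arrays for 7 of these 8 genes, as for 19.4% of all genes. The 8 genes were chosen for high levels on these same mir-429 arrays, so the count is a description. DDIT4 was the exception, with 9.45 to 10.32 against 9.36 to 9.52. ATF3 was 6.57 to 6.76 against 5.7 to 6, ASNS 10.02 to 10.29 against 9.48 to 9.64, and HERPUD1 10.62 to 10.77 against 10.22 to 10.27. For SLC7A11 the step was smaller, 9.43 to 9.74 against 9.37 to 9.39. The control arrays of the same genes lay on both sides of untransfected cells at 144 h, and the differences of control from untransfected cells given above (-0.72 for DDIT4, -0.46 for CHAC1 and DDIT3, -0.45 for SLC7A11) use the same control arrays and did not pass the threshold.

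**Figure D3:**
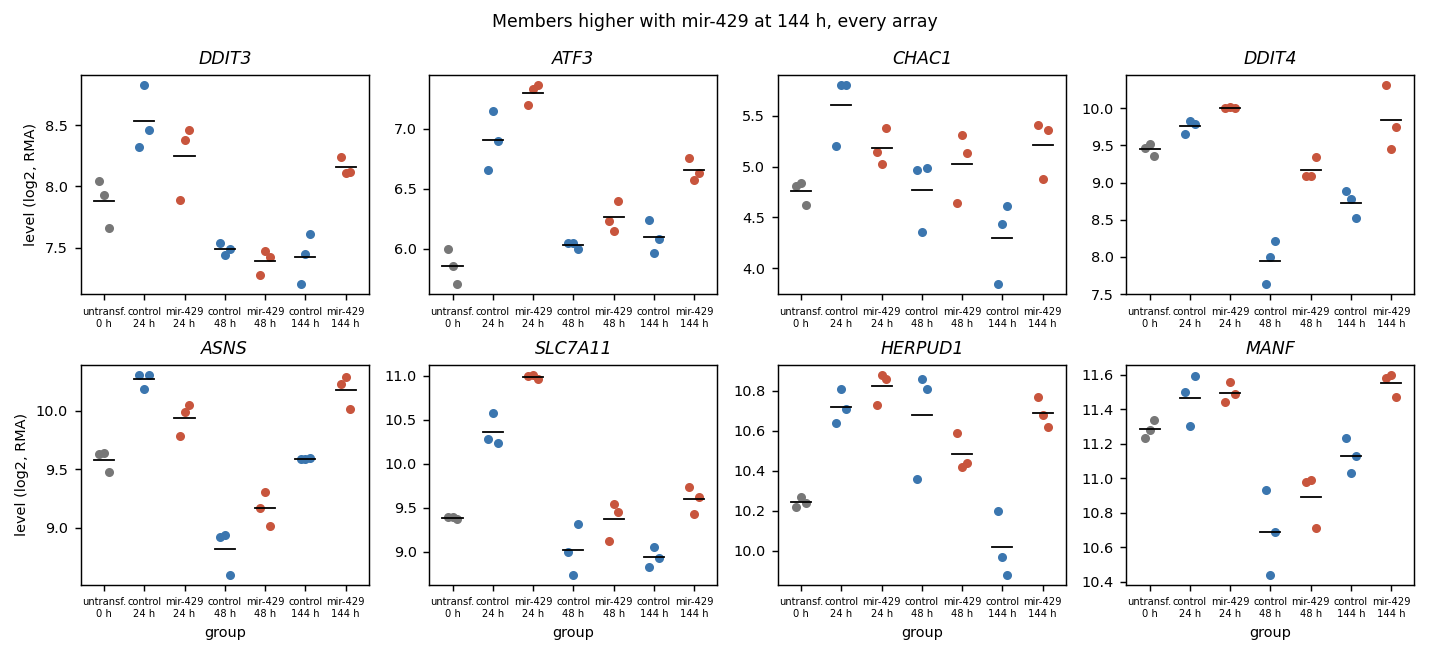
Log2 level of the 8 members that rose with mir-429 at 144 h, for each of the 21 arrays in the 7 groups, with an axis of its own for each gene. Points are arrays and bars are group means of 3; at 144 h every mir-429 point lies above every control point, and at 24 h SLC7A11 and ATF3 are higher with mir-429 while ASNS is lower.

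The change of the mir-429 effect between times was tested as an interaction of treatment and time. From 24 h to 144 h it was called for 14 of the 50 members (28%), 13 with a more positive difference at 144 h and 1 with a more negative one, against 18.6% of all genes, 6.32% higher and 12.3% lower. In the ATF4 branch the change was positive for 10 of 30 and negative for 1, with a median change of 0.51. In the ER chaperone branch it was positive for 2 of 16 and negative for 0, with a median of 0.00, and the median over all genes was -0.04. CHAC1 changed by 1.34 ± 0.33 (SE; adjusted p = 0.00952), from a difference of -0.42 at 24 h to 0.92 at 144 h. NUPR1 changed by 1.13 ± 0.29 (adjusted p = 0.0115), DDIT3 by 1.03 ± 0.22 (adjusted p = 0.00409) and ASNS by 0.91 ± 0.16 (adjusted p = 0.00088). DDIT4 changed by 0.86 ± 0.25 (adjusted p = 0.0216) and SESN2 by 0.82 ± 0.27 (adjusted p = 0.0429). The other members with a positive change were HERPUD1, CALR, ATF6, PHGDH, GARS1, WARS1 and SARS1, and CEBPG had the negative one. In PHGDH, GARS1, WARS1 and ATF6 a difference that was below 0 and past the threshold at 24 h (-0.52, -0.51, -0.53 and -0.32) was smaller in size and did not pass at 144 h (0.19, 0.07, 0.18 and 0.22). The count was 9 without control replicate 3 at 24 h, 8 without mir-429 replicate 1 at 24 h, 6 with the 3′ minus 5′ gauge in the fit, 9 with no filter on dim genes and 25 with array weights. With the mean of a gene's probe sets the count was 10, and ASNS, ATF6, CALR, CEBPG, SARS1 and SESN2 did not pass.

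A difference below 0 at 24 h and above 0 at 144 h was found in 25 of the 50 members, 18 of 30 in the ATF4 branch (60%), 4 of 16 in the ER chaperone branch (25%) and 22.4% of all genes. All 5 aminoacyl-tRNA synthetases followed this course, and GARS1, WARS1 and SARS1 passed the test of the change. SLC7A11 and ATF3 did not follow it: their differences were 0.63 and 0.39 at 24 h and 0.66 and 0.56 at 144 h, past the threshold at both times.

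**Figure D4:**
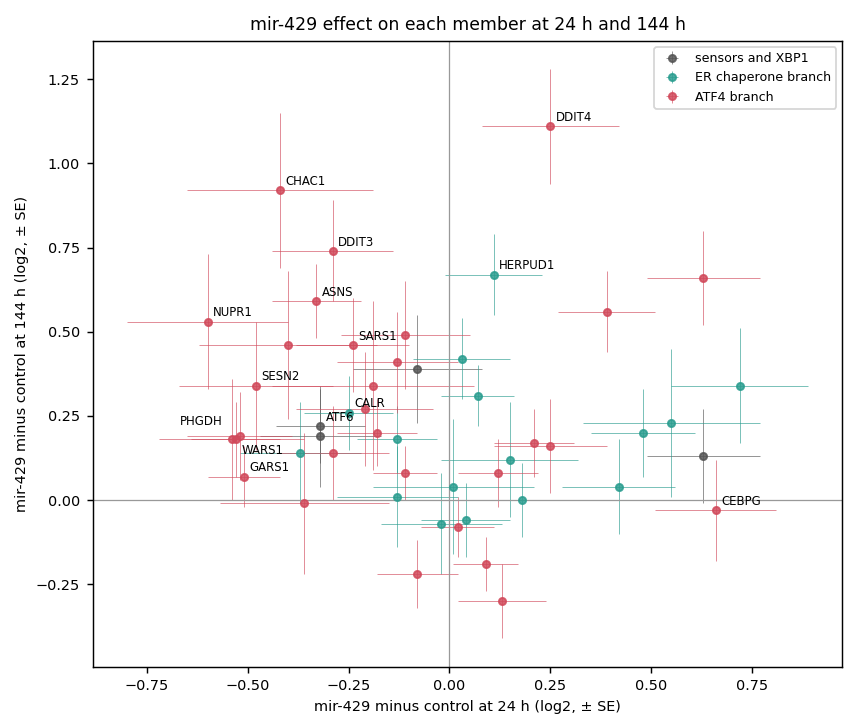
Difference of mir-429 from control miRNA at 24 h (horizontal, log2) and at 144 h (vertical, log2) for the 50 members, coloured by branch; points are estimates from 3 arrays in each group and bars their standard errors. Most ATF4-branch points lie left of 0 and above 0 (18 of 30), while 4 of 16 ER chaperone points do.

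From 48 h to 144 h the change was called for 5 members (10%), all with a more positive difference at 144 h, against 9.47% of all genes, 3.84% higher and 5.62% lower. They were NUPR1 at 1.41 (adjusted p = 0.00401), HERPUD1 at 0.86 (adjusted p = 0.00256), DDIT3 at 0.84 (adjusted p = 0.0205), CEBPB at 0.82 (adjusted p = 0.0347) and ATF6 at 0.61 (adjusted p = 0.0174). NUPR1 lay below the array median on mir-429 replicate 2 at 48 h. The count was 3 without control replicate 1 or mir-429 replicate 2 at 144 h, and 3 with the 3′ minus 5′ gauge in the fit. From 24 h to 48 h it was called for 3 members (6%), all with a more positive difference at 48 h, against 4.89% of all genes, 1.75% higher and 3.14% lower. They were DDIT4 at 0.98 (adjusted p = 0.0323), PYCR1 at 0.93 (adjusted p = 0.0417) and ASNS at 0.67 (adjusted p = 0.024). None of these 3 kept its call in all 21 fits that left out 1 array. Both shares are near the background.

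The members that carry the printed promoter letters were followed as groups, without a test, beside the 1.48% of all genes higher with mir-429 at 144 h and the 18.3% higher in control cells at 24 h. Of the 10 with a C/EBP-ATF match, 4 rose with mir-429 at 144 h (HERPUD1, ATF3, CHAC1 and ASNS), with a median difference of 0.42, and 6 were higher and 1 lower in control cells at 24 h, with a median of 0.42. The same 10 were mixed elsewhere: 2 were higher and 2 lower with mir-429 at 24 h, with a median of -0.14, and 1 was higher and 3 lower in control cells at 48 h, with a median of -0.08. Of all genes, 15% were higher and 11.6% lower with mir-429 at 24 h, and 18.4% higher and 36.1% lower in control cells at 48 h. Of the 34 with a promoter and no such match, 3 rose with mir-429 at 144 h (DDIT3, DDIT4 and MANF), with a median of 0.18, and 12 were higher and 2 lower in control cells at 24 h, with a median of 0.18. Of the 10 with either form of the ER element, 1 rose at 144 h (HERPUD1), with a median of 0.16, and 6 were higher in control cells at 24 h, with a median of 0.38.

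Other genes of both pathways, from lists of 50 symbols each that share no gene with the members, moved as follows. Of 44 tested genes for ER folding, translocation and degradation, 9 were higher and 3 lower with mir-429 at 24 h, 3 higher and 1 lower at 48 h, and 2 higher and 0 lower at 144 h. These are 27.3%, 9.09% and 4.55% of the list, near the 26.6% of all genes at 24 h and below the 20.6% at 48 h. At 144 h 5.85% of all genes differed, 1.48% higher and 4.37% lower, while both genes called in the list were higher. At 24 h the lectin EDEM3 differed by 1.42 ± 0.25 (SE; adjusted p = 0.000429), the transcription factor CREB3L2 by 0.72 (adjusted p = 0.0118), MBTPS2, the protease that makes the second cut in ATF6, by -0.77 (adjusted p = 8.1e-05) and the degradation lectin OS9 by -0.50 (adjusted p = 0.00203). At 48 h SSR2 and SEC63, both of the translocation machinery, differed by 0.45 and 0.40, and the retrieval receptor KDELR3 by -0.47. At 144 h KDELR3 rose by 0.50 (adjusted p = 0.0411) and the thiol oxidase ERO1B by 0.45 (adjusted p = 0.0439).

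Of 43 tested genes of the ATF4 and amino acid list, 1 was higher and 6 lower with mir-429 at 24 h, 4 higher and 3 lower at 48 h, and 2 higher and 0 lower at 144 h. These are 16.3%, 16.3% and 4.65% of the list, below the 26.6% and 20.6% of all genes at 24 h and 48 h. At 144 h 5.85% of all genes differed, 1.48% higher and 4.37% lower, while both genes called in the list were higher. The median difference of the list at 144 h was 0.03. GDF15, a secreted stress cytokine, differed by -0.68 ± 0.15 (SE) at 24 h (adjusted p = 0.00329), by 0.62 ± 0.15 at 48 h (adjusted p = 0.00744) and by 0.82 ± 0.15 at 144 h (adjusted p = 0.0035). PCK2, mitochondrial phosphoenolpyruvate carboxykinase, rose by 0.70 at 144 h (adjusted p = 0.00936). At 24 h SHMT1, a cytosolic serine enzyme, differed by 0.50, and EIF2B5, a subunit of the exchange factor that phosphorylated eIF2 alpha inhibits, by -0.57. At 48 h EIF2AK4, the amino acid sensing kinase, differed by 0.60, the heme-regulated kinase EIF2AK1 by -0.27 and the leucyl-tRNA synthetase LARS1 by -0.25.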

How the data were processed

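Total RNA of 21 HEY cultures was amplified from the 3′ end, labelled with biotin and hybridised, per the labels' protocols. The deposited values are log2 intensities, 1 per probe set, made by the authors with RMA, as the submitters' processing notes record. Its version is not given in the sources used here. Values ranged from 0.75 to 14.97, with array medians of 3.95 to 4.29, and were used as deposited. The median of 3.95 was that of mir-429 replicate 1 at 144 h, and the other arrays lay at 4.14 to 4.29. The number of arrays limits the precision, and with 3 arrays a group an exact permutation test cannot go below a p of 0.1.

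Groups were taken from the sample titles and the transfection label. Of 54675 probe sets, 41097 had 1 gene symbol, 1801 several and 11777 none. Symbols were updated through Entrez identifiers (99.9% matched; RefSeq, GRCh38.p14). The brightest single-symbol probe set stood for a gene. Brighter probe sets of HSP90B1 and 1 of PHGDH carry several symbols and were left out. Genes above the array median on at least 3 of 21 arrays were tested (12879). Levels of all 7 groups were fitted together with limma 3.58.1 in R 4.3.3 (lmFit, contrasts, eBayes), with Benjamini-Hochberg adjustment over all genes tested and a threshold of 0.05. Residual degrees of freedom were 14 and prior ones 3.93. The labels do not say how cultures were kept apart, so p-values cover the spread seen between arrays. Tested on simulated data (mir-429 against control at 24 h, 12879 genes), the fit called 35.8% of added changes of 0.5 (log2), 86.6% of those of 1 and 100% of those of 2. Changes were added to 67, 67 and 66 genes, and 6 of 154 calls were false. Many more genes were called in the measured data, so these shares do not carry over to them.

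Named with values were 15 genes always, up to 8 called members in each mir-429 comparison, up to 6 in each comparison with untransfected cells and each change of effect, and up to 2 per direction of the other pathway lists. Further names were chosen after their values were seen. Members, branches and lists were chosen with earlier results of these data known. Alternatives changed the scaling, the filter, the probe set rule, the arrays fitted, a replicate block, array weights and a 3′ minus 5′ covariate.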

Additional observations from a re-analysis of the deposited data

Results flagged for a closer look

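The mir-429 effect, taken as the difference from control miRNA on the log2 scale, differed between times by a limma interaction test (adjusted p under 0.05) for the members given here. The signed difference was higher at 144 h than at 24 h for CHAC1 by 1.34, NUPR1 by 1.13, DDIT3 by 1.03, ASNS by 0.91, DDIT4 by 0.86 and SESN2 by 0.82. The same held for PHGDH by 0.71, WARS1 by 0.71, SARS1 by 0.70, GARS1 by 0.58, HERPUD1 by 0.56, ATF6 by 0.53 and CALR by 0.52, while CEBPG changed by -0.69. For PHGDH, WARS1, GARS1 and ATF6 the difference was below 0 and past the threshold at 24 h and smaller in size at 144 h. It was higher at 144 h than at 48 h for NUPR1 by 1.41, HERPUD1 by 0.86, DDIT3 by 0.84, CEBPB by 0.82 and ATF6 by 0.61. It was higher at 48 h than at 24 h for DDIT4 by 0.98, PYCR1 by 0.93 and ASNS by 0.67. The 3′ minus 5′ gauge also differed between these times and, at 24 h, between the groups compared, and its part in the changes was not tested beyond the covariate fit. Beyond the fits that left out 1 array and the array weights, groups of 3 arrays were not searched for single outlying arrays.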

How the results depend on the processing

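Counts are members past the threshold, given here without the share of all genes that passed in the same setting. Quantile and cyclic loess scaling and a filter on all 21 arrays kept every count within 1.5 times of that reported. For mir-429 at 24 h (14), the count was 9 with no filter, 9 with the mean of a gene's probe sets, 0 with the 3′ minus 5′ covariate and 25 with array weights. At 48 h (8) it was 5 with no filter, 2 with only the arrays compared, 4 with the covariate and 3 with weights. At 144 h (8) it was 5 with the mean of probe sets and 19 with weights. For control against untransfected cells it was 10 with the covariate at 24 h (25) and 1 at 48 h (29), and at 144 h (0) it was 4 with only the arrays compared and 25 with weights. For the change of effect from 24 h to 144 h (14), it was 9 with no filter, 6 with the covariate and 25 with weights. From 48 h to 144 h (5) it was 3 with the covariate. From 24 h to 48 h (3) it was 0 with no filter, with only the arrays compared and with the covariate, and 1 with the mean of probe sets. The estimation of array weights (0.22 to 5.14) stopped before it converged. Leaving out 1 array gave 7 to 16, 3 to 9 and 5 to 10 for mir-429 at 24, 48 and 144 h, 18 to 26, 23 to 30 and 0 to 1 for control cells, 8 to 17 for the change from 24 h to 144 h, 3 to 5 from 48 h and 0 to 7 from 24 h to 48 h. Without the 48 h arrays mir-429 gave 17 at 24 h and 12 at 144 h.

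Replicate numbers gave no steady sign of pairing: deviations of same-numbered arrays correlated between -0.37 and 0.28. For mir-429 against control at 24 h they correlated at 0.28, 0.09 and 0.18. So few arrays in a group cannot exclude a pairing. With the replicate block the counts were 13, 8 and 8 for mir-429, 24, 29 and 0 for control cells, and 14, 5 and 3 for the changes of effect.

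The mean of probe sets turned the direction of ASNS (-0.03) and HSPA5 (-0.35) with mir-429 at 48 h, of KDELR3 there (0.01), of CREB3L2 at 24 h (-0.15), and of PDIA4 (1.11) and XBP1 (-0.26) in control cells at 48 h. The covariate turned 4 of the 29 called members in control cells at 48 h: ATF4 (0.02), HSPA5 (0.05), CEBPG (0.67) and WARS1 (-0.38). Of all 50 members, 34 kept their direction there. The mean of probe sets also brought HERPUD1 (0.33), SLC7A11 (0.38), ASNS (0.18) and ATF3 (0.19) below the threshold at 144 h. The cause was not tested. Such means take in every single-symbol probe set of a gene, bright or dim, and whether dimness had a part was not tested.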
